A study of Drosophila melanogaster with 4 samples.

Results

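The regions described here are the widest places at which chromatin of Drosophila melanogaster white prepupae was enriched by an antibody against Distal-less (Dll). They are the 377 peaks, of 16117 in the deposited list, whose width from first to last base is over 2000 bp. The width that chose them comes from the same peak call as everything else in the list, so width and score are given as a description and support nothing. The series holds 2 libraries of Dll ChIP DNA and 2 of input DNA, the unprecipitated chromatin that serves as background. Both kinds were made from white prepupae of the strain named Y cn bw sp. The labels give its alleles as y[1] and oc[R3.2], then Gr22b[1], Gr22d[1] and cn[1], then CG33964[R4.2], bw[1] and sp[1], and last LysC[1], lab[R4.2] and MstProx[1] beside GstD5[1] and Rh6[1]. No treatment is named. The antibody was a rabbit polyclonal, affinity-purified. No tissue is named in the labels, and the list does not say in which cells a region was bound. The outcome analysed was a single list that holds 0 values for any one library, so depth is unknown and no value has a replicate error. All coordinates are those of FlyBase release 5. Positions of the gene table given, which is of release 6, were not used, so no gene is named beside a peak.

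Dll is a homeodomain transcription factor, a protein that binds short DNA motifs and switches genes on or off. It is needed to form the distal parts of legs, antennae and mouthparts, and it keeps acting while those appendages are shaped from the imaginal discs. White prepupae are animals at the very start of metamorphosis, when a pulse of the steroid hormone ecdysone starts the eversion of the discs into legs and wings. A factor that binds a single short site usually gives a narrow peak in ChIP-seq. A wide peak is a stretch over which the caller found enrichment without a break.

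Wide peaks made up 2.34% of the list (95% exact Clopper-Pearson interval 2.11 to 2.58%), yet they held 1.03 Mb of the 9.41 Mb in peaks, or 11.0%. All intervals of shares given here are of this kind and cover counting error only. They take peaks as independent, which peaks lying close together are not. The median width of the wide peaks was 2437 bp (interquartile range 2175 to 2941 bp), against 424 bp (292 to 654 bp) for the 15740 peaks of 2000 bp or less. Most wide peaks were not far past the limit, since 288 of them (76.4%) were under 3000 bp. The range from 2001 to 2500 bp held 204, that from 2501 to 3000 bp held 84, and 62 reached 3001 to 4000 bp. Only 15 had 4001 to 5000 bp and 12 were wider still.

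The limit of 2000 bp fell in a continuous range of widths, with 51 peaks of 2001 to 2100 bp just inside it and 59 peaks over 1900 bp just outside. The 5 narrowest wide peaks had widths of 2001 bp in 2 cases and of 2006, 2009 and 2010 bp, with scores of 238.71, 170.15, 52.16, 39.21 and 81.8. The 5 widest peaks outside had 2000, 1996, 1989, 1988 and 1987 bp and scores of 69.25, 26.49, 314.39, 117.75 and 69.47. Scores on both sides of the limit thus overlapped.

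**Figure D1:**
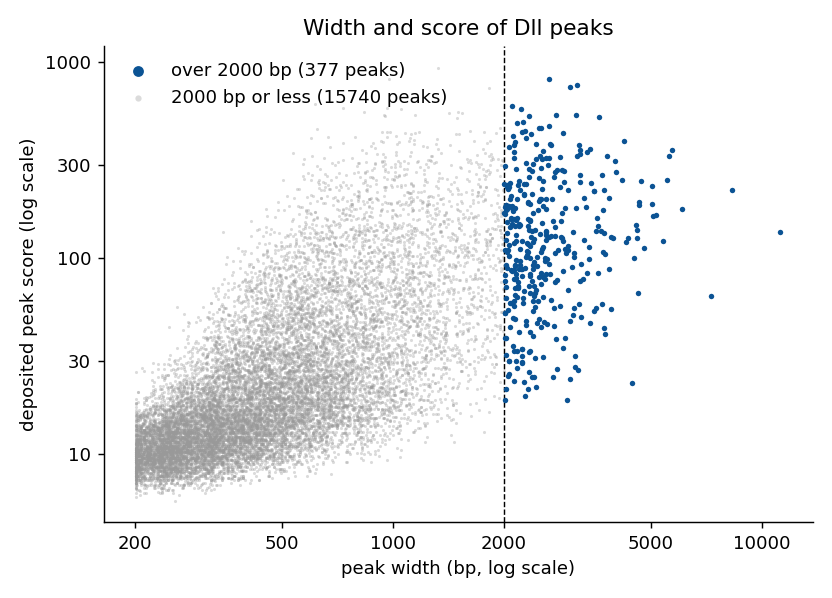
Width (horizontal, bp, log scale) and deposited score (vertical, log scale) of every peak in the list, with the 377 peaks over 2000 bp in blue and the 15740 others in grey; the dashed line is the width limit. Wide peaks start at a score of 18.8, above 8689 of the other peaks, and spread over almost the whole upper range of scores.

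Scores are the authors' own, on a scale the file does not name, and they rank peaks within this list only. The median score was 122.2 among wide peaks (quartiles 68.59 and 202.7), against 16.96 among the others (11.6 and 33.2). Of the wide peaks 250, or 66.3% (61.3 to 71.1%), were in the top 10% of the list by score, where 10% of all peaks lie. The top 1% held 47 of them, or 12.5% (9.31 to 16.2%), against 1.01% of all peaks. As width and score come from 1 peak call, nothing is read from these shares. Seen from the other side, with the list cut into 10 classes of score, 15.5% of the 1612 peaks in the highest class were wide. The share was 4.78% in the class below it and 0.310% in class 6 counted from the lowest. Each of the 5 lowest classes held 0 wide peaks, which allows a share of up to 0.186% (3 peaks of the class, for counting error only). By the exact interval the limit is 0.229%.

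Among the wide peaks themselves the range of widths is cut off at the limit, which lowers a correlation. Across the 377 peaks, which share the same libraries, Spearman's rho between the measures was 0.144 and Pearson's r, taken on log10 values, was 0.146. The median score was 103.0 for widths of 2001 to 2500 bp, 128.0 for 2501 to 3000 bp, 127.2 for 3001 to 4000 bp, 139.3 for 4001 to 5000 bp and 184.2 above that. The shares in the top 10% of the list by score were 60.8%, 71.4%, 67.7%, 86.7% and 91.7% in the same classes.

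The 20 widest peaks were led by a peak of 11207 bp on 2R, at 20726240 to 20737446, which ranked 838 in the list by score (135.37). On 3L, the peak at 662013 to 670290 covered 8278 bp and had the score 222.65, rank 343. The third, on 2R at 20706194 to 20713456, covered 7263 bp at a score of 64.05, rank 2266. None of these 3 was thus in the top 1% of the list by score. On the other large arms the widest peaks were 6054 bp on 2L at 1061121 (score 178.52), 5535 bp on X at 18430551 (250.59) and 5173 bp on 3R at 21827980 (166.89). Those ranked 11 and 12 by width covered 5045 bp on 2R at 14154943 to 14159987 (score 189.89) and 5023 bp on X at 18163270 to 18168292 (score 232.07). The last of the 20 had 4565 bp and lay on 3R at 27327553 to 27332117. Of these 20 peaks, 10 were on 2R, 3 each on 3L and 3R, and 2 each on 2L and X. Their scores ran from 64.05 to 357.05 with a median of 172.7, and 2 of them were in the top 1% of the list. Another peak lay within 1000 bp of 18 of the 20, against 53.6% of all peaks on the large arms. Their surroundings differed widely, from 2 to 25 other peaks within 25 kb. The sparse end was set by the peak of 5605 bp on 3L at 10845486 and the peak of 4655 bp on 2R at 3375877, each with 2 such neighbours.

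Of the 10 highest peaks of the whole list, 4 were wide. The highest of these was a peak of 2643 bp on 2R at 19553970 to 19556612, with a score of 816.98 and 20 other peaks within 25 kb. Next came 3152 bp on 3R at 22055223 to 22058374 (score 761.91), with 2 other peaks that near and its nearest neighbour 18828 bp away. The peak of 3023 bp on 2L at 3578285 to 3581307 (score 743.91) had 24 others around it. The last of them, on 2R at 4535960 to 4538062, was 2103 bp wide and had the score 596.4 and 22 others. High scores thus occurred both in crowded and in sparse surroundings. The other 6 of the 10 highest wide peaks scored from 493.94 to 578.79.

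At the low end, 37 wide peaks (9.81%) scored below 35.28, the upper quartile of the list. The 5 lowest scored 18.8 on 3L at 2222 to 5191, 18.8 on 3R at 12203104 to 12205118, 19.73 on 3R at 24408295 to 24410576, and 21.35 both on 2L at 1950565 to 1952584 and on 2R at 4909463 to 4911777. Each of these 5 had another peak within 343 bp, and each had 12 to 28 other peaks within 25 kb. Of the 37, another peak lay within 1000 bp of 26. In the lowest of the 10 classes of score used for matching below, 18.8 to 36.5, that was so for 68.4% of 38 wide peaks and for 58.0% of 3321 peaks of 2000 bp or less.

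Wide peaks occurred on every chromosome arm, and most of all on 2R. The arm 2R held 111 of the 375 wide peaks of the 6 arms, or 29.6% (25.02 to 34.5%), 3R held 90, 3L 77, 2L 54, X 42 and chromosome 4 held 1. To set these shares against peaks of like score, the peaks of 2000 bp or less were weighted over 10 classes of score. Their weighted scores were then spread as those of the wide peaks. Such score-matched peaks had 20.8% on 2R, which gives 2R 1.42 times the matched share (1.20 to 1.66). Intervals of the arm ratios take the matched share as free of error, so they are too narrow. X held 11.2% of the wide peaks (8.19 to 14.8%) and 16.2% of the score-matched peaks, a ratio of 0.690 (0.505 to 0.914). The shortfall of X appeared only after matching by score. Without matching, X held 11.9% of all arm peaks of 2000 bp or less and 2R held 21.3%, and 2.27% of the peaks of X were wide, against 2.40% over the arms. The corresponding shares of wide peaks were 3.304% on 2R, 2.26% on 3L, 2.18% on 3R and 1.89% on 2L. The ratios of 2L, 3L and 3R were 0.839 (0.641 to 1.07), 0.991 (0.799 to 1.21) and 0.964 (0.794 to 1.15), and these intervals include 1. Without the run of 16 wide peaks described below, the ratio of 2R was 1.27 (1.06 to 1.51) and that of X was 0.716 (0.524 to 0.948). No test was run on these shares or on the later comparisons with matched peaks, since 1 list has no replicates.

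Per length of the span from first to last peak, wide peaks numbered 5.27 per Mb on 2R, against 3.23 on 3R, 3.16 on 3L, 2.35 on 2L, 1.87 on X and 0.846 on chromosome 4. The wide peaks of X had a median score of 178.5, against medians of 114.4 on 2R, 119.0 on 3L, 119 on 3R and 131.2 on 2L. High scores were not limited to the wide peaks of X, since its share of the narrower peaks was larger after matching to high scores than before. The median width of the wide peaks of X, 2418.5 bp, lay between the 2397 bp of 2R and the 2529 bp of 3L, which were the lowest and the highest medians among the large arms.

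**Figure D2:**
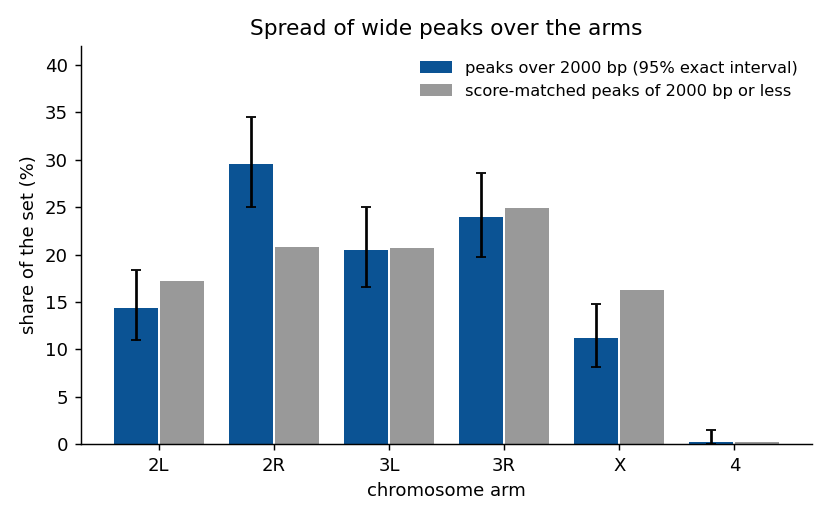
Share (vertical, %) of the 375 wide peaks on each of the 6 chromosome arms (horizontal; blue, with 95% exact intervals), beside the share of score-matched peaks of 2000 bp or less (grey). 2R, at 29.6% against 20.8%, is the arm where the wide peaks exceed the matched ones most, and X, at 11.2% against 16.2%, is where they fall short most.

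Within the arms, wide peaks were widely spread, with some places that held many. Over 116 whole windows of 1 Mb on the large arms, laid from the first peak of each, the number of wide peaks was 3.19 ± 3.17 (mean ± SD over windows), with a median of 2. In 18 of the windows (15.5%) there were 0 wide peaks. The highest number, 21, stood in the window of 2R from 20059208 to 21059207, where 8.43% of 249 peaks were wide. The next was the first window of 3L, from 214 to 1000213, with 15 wide peaks among 183. In all, 5 windows held 10 or more wide peaks and 66 of them together. Windows with more other peaks tended to hold more wide ones, with a Spearman correlation of 0.633 and a Pearson correlation of 0.572 across the 116 windows, which share libraries and, when adjacent, peak clusters.

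Joining wide peaks whose gaps were 50 kb or less gave 229 groups. Of these, 145 were a single wide peak. The other 84 groups held 232 wide peaks (61.5%), and 31 groups held 3 or more, with 126 wide peaks in all (33.4%). These 31 runs were distributed as 12 on 2R, 7 each on 3L and 3R, 3 on 2L and 2 on X. Wide peaks in runs of 3 or more were close in score and width to those standing alone. Median scores were 112.5 for the 126 in runs (quartiles 63.1 and 190.4) and 130.9 for the 145 alone (68.6 and 242.1). Median widths were 2548 bp (2268 and 3208 bp) and 2363 bp (2141 and 2973 bp) for the same sets. The number of all other peaks within 25 kb was 18.9 ± 5.8 for those in runs and 10.3 ± 6.0 for those alone (SD over peaks). Since runs were defined by closeness, this last difference follows in part from the definition.

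The largest run lay in the distal part of 2R, from 20679441 to 20792387, and ended 323.6 kb before the last peak of that arm. It held 16 wide peaks in 112.9 kb, or 14.4% of the wide peaks of 2R and 4.24% of all. Wide peaks covered 51.3% of its length and peaks of any width 63.4%. The 16 wide peaks had a median width of 2835.5 bp and a median score of 78.2, and their scores ran from 27.57 to 319.33. Their scores were thus uneven. The highest score stood at the low-coordinate edge, at 20679441 to 20681877, over 2437 bp, and the next were 230.55 at 20700527 to 20703366 and 223.95 at 20754169 to 20757153. Of the 16, 8 were in the top 10% of the list. Between them lay 18 peaks of 2000 bp or less with a median width of 626.5 bp and scores from 8.76 to 60.1. The median gap between neighbouring peaks of the run was 635 bp and the longest was 8196 bp. The gene for Dll itself is in the distal part of this arm, but whether the run includes it was not determined here.

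**Figure D3:**
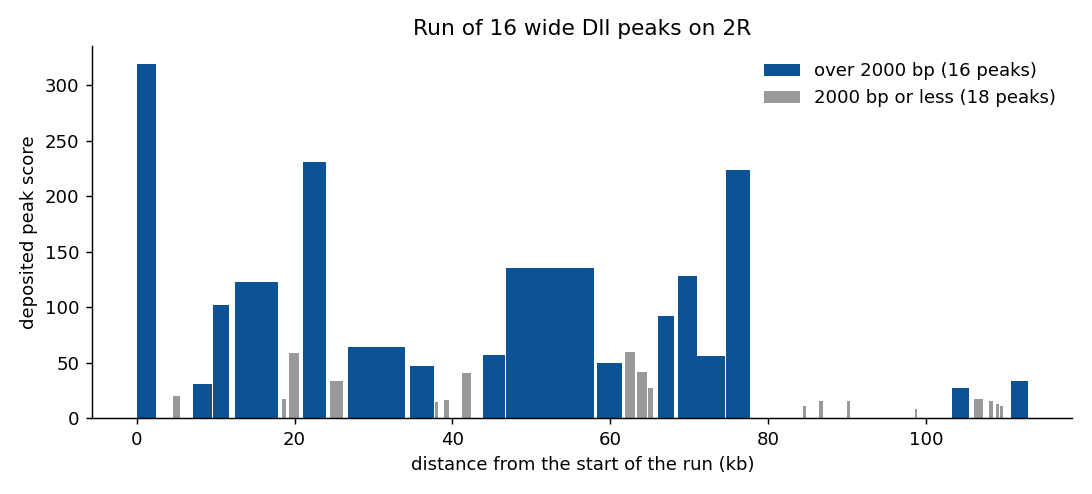
The 34 peaks of the largest run of wide peaks, on 2R, drawn to scale by distance from the start of the run (horizontal, kb) with the deposited score as height (vertical); the 16 wide peaks are blue and the 18 others grey. Wide peaks fill most of the first 77.7 kb, where scores reach 319.33, and only 2 wide peaks, scored 27.57 and 33.56, lie beyond it.

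The second run, on 3R from 9618944 to 9768076, held 8 wide peaks among 60 peaks in 149.1 kb. Its widest members were 3995 bp at 9758413 to 9762407 (score 311.89), 3415 bp at 9698956 to 9702370 (359.5) and 3413 bp at 9674312 to 9677724 (46.59). Wide peaks covered 15.3% of it, so here they stood among many narrower ones. On 2R, 7 wide peaks among 61 peaks lay at 7362524 to 7481975, led by 3215 bp at 7412988 to 7416202 with a score of 341.42, followed by 2496 bp at 7448396 (132.86) and 2389 bp at 7428697 (120.84). The lowest score in this run was 101.54, so all of its wide peaks were in the top 10% of the list.

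Of the runs with 5 wide peaks, the one on 3L from 659841 to 740262 contained the peak of 8278 bp named above, a peak of 2488 bp at 737775 to 740262 with a score of 459.6 and one of 2386 bp at 727440 to 729825 with 213.33. The other, on 2R from 4880962 to 4953541, had its widest peaks at 4880962 to 4885239 (4278 bp, score 120.22), 4890862 to 4894401 (3540 bp, 137.31) and 4951011 to 4953541 (2531 bp, 111.05). It also held wide peaks of low score, 29.41 and 21.35. Runs thus differed in score, with a median over their wide peaks of 213.3 in this run of 3L and 111.05 in that of 2R.

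Wide peaks lay nearer to other wide peaks than score-matched peaks did. This comparison used the 374 wide peaks of the 5 large arms, 2L, 2R, 3L, 3R and X, since those of chromosome 4, U and 2RHet were the only wide ones on their sequences. The matched set drew on 6711 of the 15241 peaks of 2000 bp or less, and its weighted median score was 122.3, against 122.5 for the wide peaks. The median distance to the nearest other wide peak, between edges, was 26.5 kb from a wide peak (interquartile range 4.53 to 125.1 kb) and 105.0 kb from a score-matched peak (27.7 to 281.1 kb). Another wide peak lay within 25 kb of 185 wide peaks, or 49.5% (44.3 to 54.7%), and of 23.8% of the matched peaks, where the share over all peaks of the large arms was also 23.8%. Within 5 kb the shares were 25.9% (21.6 to 30.7%) of wide peaks and 8.91% of matched peaks. Within 250 kb they were 88.5% (84.8 to 91.6%) and 72.3%. The share within 25 kb was larger for wide peaks in 9 of the 10 classes of score. The exception was the highest class, with scores from 331.5 to 816.98, where it was 36.8% of 38 wide peaks and 38.6% of 70 others.

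Peaks of all widths were also denser around wide peaks. A wide peak had 14.5 ± 6.9 other peaks within 25 kb of its edges (SD over peaks, n = 374), and score-matched peaks of 2000 bp or less had 10.5 ± 6.0, a ratio of 1.38. The spreads overlap broadly, so single peaks of the sets cannot be told apart by this number. The mean was larger around wide peaks in 10 of 10 classes of score, by 1.50 peaks in the lowest class and by 6.19 in the class from 78.5 to 98.6. Bases in other peaks made up 21.5% ± 14.4 of the 25 kb on each side of a wide peak and 13.1% ± 9.4 for matched peaks. Leaving out the wide peaks in runs of 3 or more moved the ratio to 1.17. By construction this step takes the densest places from the wide set only. Matched peaks in the same places stayed in, with their neighbours counted as before.

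Close contact showed the same direction. The gap to the nearest other peak had a median of 422 bp for wide peaks (interquartile range 203 to 1044 bp) and 803 bp for matched peaks (337 to 2284 bp). Another peak lay within 1000 bp of 277 wide peaks, or 74.1% (69.3 to 78.4%), and of 55.9% of matched peaks. On both sides that was so for 28.1% of wide peaks (23.6 to 32.9%) and 14.7% of matched ones, where all peaks of the large arms had 13.4%. Only 17 wide peaks (4.55%, 2.67 to 7.18%) had no other peak within 5 kb, against 12.9% of matched peaks and 14.2% of all peaks of the large arms. None of the 374 was farther than 25 kb from another peak, and 1.07% of matched peaks were. That allows a share of wide peaks of up to 0.802% counted as 3 peaks of the 374, or 0.981% by the exact interval. Distances were taken between edges. Between centres a peak over 2000 bp cannot have a neighbour within 1000 bp at all, so nothing is read from that measure between centres.

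**Figure D4:**
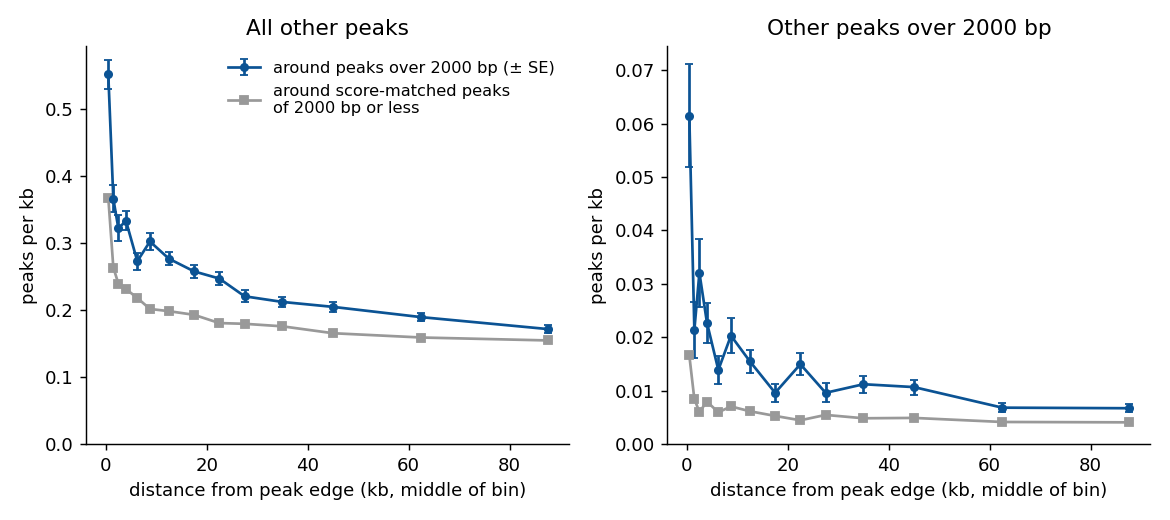
Number of other peaks per kb (vertical, averaged over both sides) by distance from the peak's edge (horizontal, kb). Blue is around wide peaks (mean ± SE over 374 peaks) and grey is around score-matched peaks of 2000 bp or less. The left panel counts all other peaks and the right panel other peaks over 2000 bp. The blue line lies above the grey one in every bin from 0 to 100 kb, from 0.552 against 0.368 peaks per kb in the first kb to 0.172 against 0.155 in the last bin.

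The excess reached beyond the immediate surroundings. In the first kb from the edge, wide peaks had 0.552 ± 0.022 other peaks per kb (SE over peaks) and matched peaks 0.368, a ratio of 1.50. This SE takes the 374 peaks as independent, and since wide peaks of 1 run count each other and share neighbours, it is too small. From 1 to 25 kb the ratio varied by bin, from 1.25 (5 to 7.5 kb) to 1.50 (7.5 to 10 kb). It was 1.23 between 25 and 30 kb and 1.11 between 75 and 100 kb. For other wide peaks alone, the first kb held 0.0615 ± 0.0097 per kb around wide peaks and 0.0166 around matched ones, and the last bin 0.00674 ± 0.00072 and 0.00410.

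The number of neighbours went up with width below the limit as well. When each class of width was weighted to the scores of the wide peaks, peaks over 2000 bp had 14.5 other peaks within 25 kb, those of 1501 to 2000 bp had 12.3, of 1001 to 1500 bp 11.5, of 501 to 1000 bp 10.2 and of 500 bp or less 9.33. The share with a wide peak within 25 kb was 49.5% over 2000 bp, then 31.9%, 28.6%, 22.0% and 12.3% in the same classes. The limit of 2000 bp thus cuts a graded relation. The narrowest class reached too few high scores to be matched in full, and it covered 79.9% of the score distribution of the wide peaks.

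**Figure D5:**
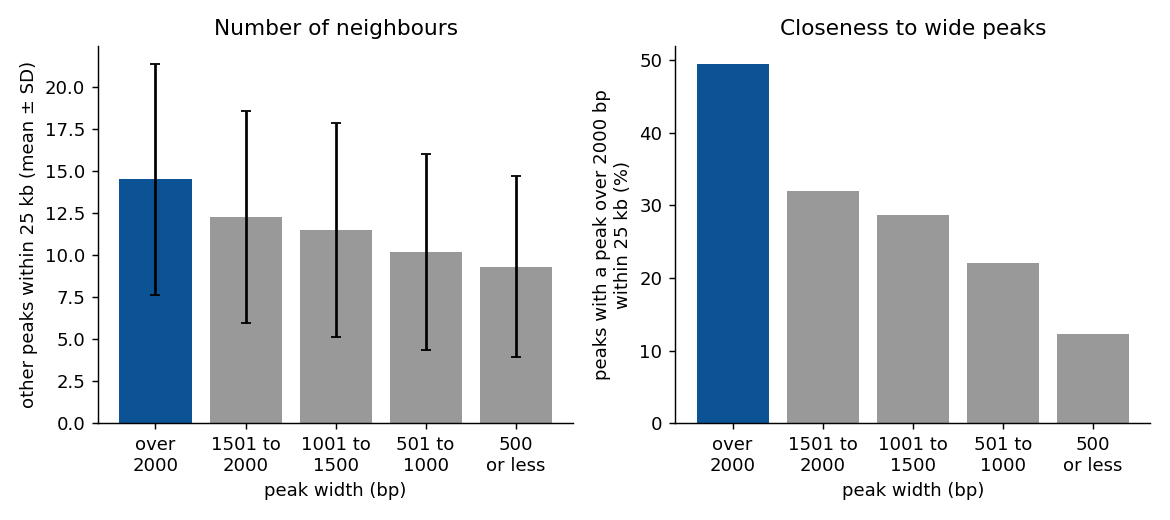
Mean number of other peaks within 25 kb (left, ± SD over peaks) and share of peaks with a peak over 2000 bp within 25 kb (right, %) by class of peak width (horizontal, bp), the classes of 2000 bp or less being weighted to the scores of the wide peaks. Both measures are highest over 2000 bp, at 14.5 peaks and 49.5%, and lowest at 500 bp or less, at 9.33 peaks and 12.3%.

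The neighbours of wide peaks were wider, with scores close to those next to matched peaks. The mean width of the peaks on either side had a median of 637.5 bp next to wide peaks (interquartile range 409.5 to 907 bp) and 514.5 bp next to matched peaks (383 to 735.5 bp). The mean score of the same neighbours had medians of 27.6 (15.7 to 59.8) and 27.55 (16.1 to 57.5). A wide peak was itself the immediate neighbour of 40 wide peaks, or 10.7% (7.75 to 14.3%), and of 5.87% of matched peaks. In 296 cases, or 79.1% (74.7 to 83.2%), the wide peak scored above both of its neighbours, against 77.5% of matched peaks and 32.6% of all peaks on the large arms. That share was near that of peaks of like score, so most wide peaks, as other high peaks do, had peaks of lower score on both sides.

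When peaks separated by 1000 bp or less were joined, wide peaks fell into 335 stretches with a median length of 4135 bp, against 524 bp for the 10526 stretches without a wide peak. In 99 of the 335 (29.6%) the wide peak was the only peak. Of 30 stretches longer than 10 kb, 24 held a wide peak. The longest, on 2R, were 33.8 kb at 20723341 to 20757153 with 7 wide peaks among 10, and 32.5 kb at 20686523 to 20719072 with 6 among 11. Both are in the largest run. The third, on 3L, was 19.8 kb at 214 to 19965 with 3 wide peaks among 12 and a highest score of 27.14. The next, on 3R at 11933026 to 11951516, spanned 18.5 kb with 2 wide peaks among 11 and reached a score of 296.01. The longest stretch without a wide peak was 13.8 kb. A wide peak adds its own length to a stretch, so part of the difference in length follows from the rule.

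Outside the 6 arms, 2 of 472 peaks were wide, or 0.424% (0.0514 to 1.52%), against 375 of 15645 on the arms, or 2.40% (2.16 to 2.65%). One lay on 2RHet, a scaffold of heterochromatin, at 686449 to 688523 (2075 bp, score 44.55), and the other on U, sequence not placed on a chromosome, at 5630751 to 5633151 (2401 bp, score 92.32). The share outside the arms was not set against score-matched peaks. The median score of all peaks there was 27.01, against 16.97 for all peaks on the arms. Uextra held 0 wide peaks among 347, which allows a share of up to 0.865% counted as 3 peaks, or 1.06% by the exact interval. The wide peak of chromosome 4, at 527395 to 529421, had 2027 bp and a score of 186.96, with 4 other peaks within 25 kb.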

How the data were processed

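The authors deposited 1 peak list for 2 Dll ChIP and 2 input libraries, and it was read as deposited. The submitters' processing notes name BWA, MACS2, CASAVA in versions 1.7.0.2 and 1.7.0.3, and build BDGP 5. The calling threshold, and whether replicates were pooled, is not given in the sources used here. Positions count from 1 on FlyBase release 5 in GFF version 3, per the file headers. Each peak has other deposited values, a start and an end, and 1 score whose scale the authors do not name. Depth per library is unknown, and with 0 values per library no test was possible; no p-value is given.

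Computed here (Python 3.11.15, pandas 2.3.3, scipy 1.17.1) were widths, gaps between edges, numbers of peaks within 25 kb, groups of wide peaks joined at 50 kb, and shares with 95% Clopper-Pearson intervals. Score matching weighted peaks of 2000 bp or less over 10 classes bounded by the deciles of the wide peaks' scores. Alternatives changed the width limit, matching, radius, distance measure and arms.

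The width rule, the measures and the peaks to name were chosen with earlier results of these data known. Named were the 20 widest, the 10 highest and 5 lowest wide peaks, 5 on each side of the limit, the widest of each sequence and the 5 largest runs, in full or by their range. Joined stretches, classes of width, 1 Mb windows, the profile by distance and low-scored wide peaks were added after the values were seen.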

Additional observations from a re-analysis of the deposited data

How the results depend on the processing

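Of 86 alternative values for 11 results, 65 stayed within the interval of the main value, 20 moved out of it and 1 reversed. The values without the run of 16 wide peaks were not planned. Nor were the other score matchings for the distance between wide peaks. All of these unplanned values stayed within the interval, so they raise the count of 65. The reversal, between centres, was fixed in advance by the width rule. Other alternatives kept the direction of the neighbour measures. For the neighbour ratio of 1.38 the interval was 1.32 to 1.45. For the excesses of 18.2 and 25.7 points it was 13.5 to 22.6 and 20.5 to 30.9 points. These intervals take peaks as independent and the matched value as free of error. They are thus too narrow, and the counts of values that stayed or moved rest on them. By construction the share of wide peaks, 2.34%, was 4.82% over 1500 bp, 0.552% over 3000 bp, and 2.74% and 14.2% after merging within 100 and 1000 bp. On scaffolds it was 0.424%. The share in the top 10% by score was 59.7% over 1500 bp and 74.2% over 3000 bp. Over 3000 bp, 89 peaks, the arm ratios of 3L and X were 1.26 and 0.274. Over the alternatives the ratio of 3L lay between 0.895 and 1.26 and that of 3R between 0.951 and 1.10, so neither has a direction, while 2R stayed above 1 (1.27 to 1.45) and 2L and X below it. The interval of 2R includes 1 over 3000 bp (0.994 to 1.94), and that of 2L excludes it over 1500 bp (0.610 to 0.880) and with the 10 peaks nearest in score (0.520 to 0.867), where ties were taken in list order, which starts with 2L. The ratio of neighbours within 25 kb, 1.38, was 1.31 over 1500 bp, 1.30 over 3000 bp, 1.17 without runs of 3 or more, 1.31 within 50 kb and 1.24 within 100 kb. Wide peaks exceeded matched ones by 18.2 percentage points in having a peak within 1000 bp, and by 12.4 without runs; between centres it was -16.9, because a peak over 2000 bp cannot have a centre that close. The excess for a wide peak within 25 kb, 25.7 points, was 18.2 over 1500 bp, 19.0 over 3000 bp and 12.1 without runs. For the 12.1, the wide peaks in runs were deleted from the list and all distances taken anew. For the 1.17 and the 12.4 they were left out of the wide set only and still counted as neighbours. Joining at 20 kb put 19.1% of wide peaks in runs of 3 or more, and at 100 kb 45.1%, against 33.4%. No paired analysis was possible because the list holds no values per library, and no replicate could be left out. With depth unknown, wide regions that a deeper library would join or split cannot be told.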

Other observations

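The first 20 kb of 3L and 2L, counted from the first peak of the arm, held wide peaks of low score. On 3L, 3 of 12 peaks there were wide. They covered 2970 bp at 2222 to 5191, 4435 bp at 10715 to 15149 and 2787 bp at 15817 to 18603, with scores of 18.8, 23.16 and 27.14. On 2L, 1 of 4 peaks was wide, 3169 bp at 651 to 3819, with a score of 26.89. These scores are all below 35.28, the upper quartile of the list, although the 4435 bp peak ranked 22 by width. The first 20 kb of the peak spans of 2R, 3R and X, and the last 20 kb of those of all 5 large arms, held 1 to 4 peaks each and 0 wide ones. This region was picked after its values were seen.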
